A study of Mus musculus with 4 samples.

Results

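Chromatin accessibility at the annexin genes was examined by ATAC-seq in neutrophils deficient for the long non-coding RNA Morrbid and in wild-type neutrophils. Annexins are a family of proteins that bind phospholipid membranes in the presence of calcium, through a conserved core of repeats, and act in membrane trafficking, exocytosis, membrane repair and inflammation. In neutrophils, annexin A1 and annexin A3 are abundant, and annexin A1 is known as a glucocorticoid-induced mediator that limits neutrophil recruitment through formyl peptide receptors. In ATAC-seq the Tn5 transposase inserts adapters into open chromatin, so that the reads at a site report its accessibility. The members were chosen by gene name, as every consensus peak whose nearest transcription start site (TSS) belonged to Anxa1, Anxa2, Anxa3, Anxa4, Anxa5, Anxa6, Anxa7 or Anxa11. The family was itself selected on KO and WT signals of these peaks that were already known, so the differences between KO and WT below are a description, and no test of them is claimed. The rule gave 22 of the 23595 peaks in the table, at 7 of the 8 genes. Anxa5, whose product binds exposed phosphatidylserine on dying cells, had no assigned peak, nor did Anxa8, Anxa9, Anxa10 or Anxa13.

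The samples were 2 KO libraries, from neutrophils labelled Morrbid deficient on a C57BL6 background, and 2 WT libraries, from C57BL6 neutrophils. All cells were flow sorted from bone marrow and used without culture, and 50000 cells of each genotype were transposed in duplicate. The labels name no agent, age, sex or number of animals and do not say how Morrbid was disrupted, so the spread between libraries of a genotype may be technical. The values are the deposited normalised signal per peak. Each is a whole number of steps per library, and taking 1 step as 1 read gives 6182922 and 7930547 reads in peaks in KO replicates 1 and 2, against 3577922 and 3803711 in WT replicates 1 and 2. Depth thus followed genotype, and the 2 cannot be told apart. Of 16 neutrophil marker genes, 11 had a promoter peak, with summed signals of 5135 and 5238 in KO and 5144 and 4559 in WT. Of these 11, limma called Csf3r alone, lower in KO. Ly6g, Mpo, Elane, Mmp9 and Cebpe had no promoter peak, and Ly6g, Mpo and Elane had no peak of any class. Of the markers of B cells, T cells, macrophages, eosinophils and platelets, only Csf1r had a promoter peak, with a signal of at most 94.5 in any library. Counting peaks of any class, macrophage and monocyte markers had 8, eosinophil markers 7, B cell markers 5, and T cell and platelet markers 1 each. Purity of the sorted cells was not tested.

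The promoter sequences of 3 members are shown because their peaks differ in strength, in annotation and in the size of the KO to WT difference described below. They are the 250 bases before the RefSeq start in build GRCm38.p6, read 5′ to 3′ on the gene's strand, at chr19:20390672-20390921 (minus strand) for Anxa1, chr9:69453433-69453682 (plus strand) for Anxa2 and chr14:25841905-25842154 (plus strand) for Anxa11. These windows are not the sequences of the peaks. The promoter peaks of Anxa1, Anxa2 and Anxa11 reach 146, 363 and 390 bp upstream of the TSS and 1408, 722 and 877 bp downstream. Capitals mark matches, on either strand, to the 7 motifs searched.
Anxa1: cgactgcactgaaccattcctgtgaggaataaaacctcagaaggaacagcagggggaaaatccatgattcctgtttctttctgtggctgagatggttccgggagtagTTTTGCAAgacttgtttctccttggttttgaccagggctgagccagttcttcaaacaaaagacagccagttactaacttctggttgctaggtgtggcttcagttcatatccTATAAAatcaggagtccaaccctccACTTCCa
Anxa2: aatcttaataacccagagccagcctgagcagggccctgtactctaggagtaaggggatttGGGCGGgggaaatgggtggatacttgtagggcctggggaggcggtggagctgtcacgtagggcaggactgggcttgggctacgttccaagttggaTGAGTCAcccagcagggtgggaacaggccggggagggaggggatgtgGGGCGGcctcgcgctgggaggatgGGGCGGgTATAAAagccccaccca
Anxa11: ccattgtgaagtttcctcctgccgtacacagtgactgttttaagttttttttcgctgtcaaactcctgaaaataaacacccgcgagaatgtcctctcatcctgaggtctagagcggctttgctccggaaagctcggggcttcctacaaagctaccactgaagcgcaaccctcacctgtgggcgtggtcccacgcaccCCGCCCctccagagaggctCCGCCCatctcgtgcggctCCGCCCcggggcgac

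The Anxa1 window had a GC content of 46% with 2 CpG dinucleotides, the Anxa2 window 62.4% with 9, and the Anxa11 window 58% with 17. The medians over all 32851 promoter windows of the same length were 52.4% and 6. The motifs searched were TATAAA (bound by TBP), CCAAT (bound by NF-Y), GGGCGG (GC box of Sp1 and Klf factors), GGAAGT (ETS core, the kind of site bound by PU.1), TTNNGNAA (C/EBP), TGANTCA (AP-1) and ACANNNTGT (steroid receptor half-sites). In all windows, TATAAA was present in 12.4%, CCAAT in 33.8%, GGGCGG in 32.7%, GGAAGT in 19.7%, TTNNGNAA in 36.8%, TGANTCA in 6.75% and ACANNNTGT in 5.84%. Anxa1 held a TATAAA starting 32 bases before the TSS, a TTNNGNAA match starting 143 bases before it, and a GGAAGT match on the opposite strand starting 7 bases before it. Anxa2 held a TATAAA starting 17 bases before the TSS, 3 GGGCGG matches and a TGANTCA match starting 95 bases before it. Anxa11 held 3 GGGCGG matches, all on the opposite strand, and no other. No match overlapped another, and CCAAT and ACANNNTGT had none in these 3 windows. A match is a string of letters and was not tested as a binding site. Promoter windows were found for 6 of the 8 genes.

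Accessibility was higher in KO at the 5′ end of Anxa1 and at the promoter of Anxa3, while the promoters of Anxa2 and Anxa11 had nearly equal means in KO and WT. Of the 22 annexin peaks, 4 were called higher in KO and 0 lower, 18 not being called. A peak was called when limma, fitted on log2(signal + 1) over all 23595 peaks, gave a Benjamini-Hochberg adjusted p below 0.05. Among all peaks 6.08% were called higher and 4.55% lower, percentages that stand here as background only, since KO and WT values were in view when the family was proposed. By limma's unadjusted p under 0.05, 5 annexin peaks were higher and 2 lower, and no other tool was run. The share of all peaks under that limit is not given here, so these counts have no background. Both KO libraries lay above both WT libraries at 8 annexin peaks and below them at 5, beside 28% and 27.3% of all peaks. In such bulk libraries, a site open in more cells and a site more open in each cell cannot be told apart.

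**Figure D1:**
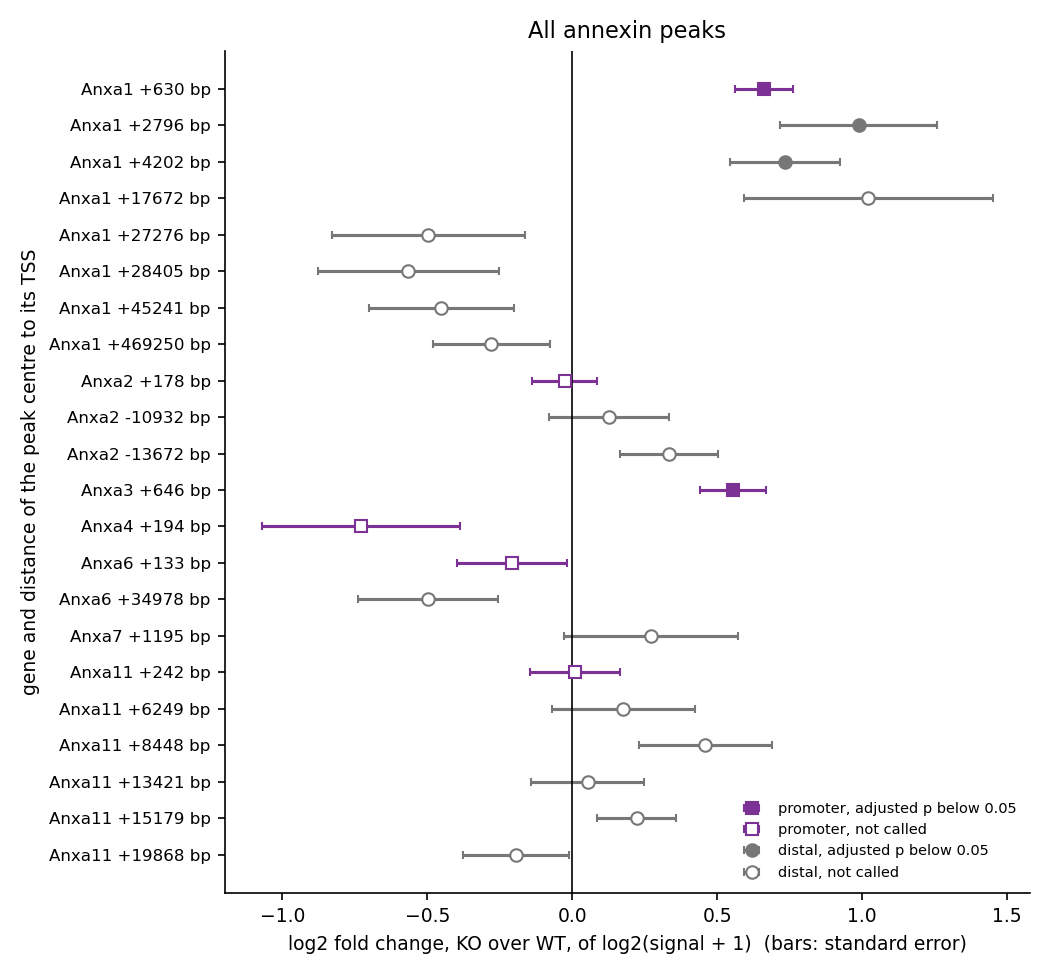
Fold changes of all 22 annexin peaks as log2 of KO over WT (fitted to log2(signal + 1), bars are standard errors), each named by gene and distance of its centre to the TSS. Filled symbols are the 4 called peaks, 3 at Anxa1 and 1 at Anxa3, with values from 0.55 to 0.99.

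Promoter peaks, meaning here peaks with their centre at most 1000 bp from a TSS or with a promoter annotation, were present at 6 genes, and 2 of these 6 peaks were called. The called peaks, at Anxa1 and Anxa3, are centred 630 and 646 bp from the TSS and would count as distal under a limit of 250 bp. Over all 9084 promoter peaks, 7.60% were called higher and 5.80% lower. The Anxa1 promoter peak lies at chr19:20463755-20465307 of mm9 in the first intron and over the TSS, reaching 146 bp upstream of it. Its signal was 705 and 730 in the KO libraries, against 448 and 458 in the WT libraries. Both KO libraries were far above both WT libraries, and replicates were close in each genotype. The mean signal was 717 ± 17.6 in KO and 453 ± 7.27 in WT (SD, n = 2 each), and the log2 fold change of KO over WT was 0.66 (SE 0.09996). The peak held 798 and 1053 reads in KO and 305 and 329 in WT, which gives a depth-adjusted ratio of 1.59 with an exact 95% interval from 1.45 to 1.74 for counting error only.

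The Anxa3 promoter peak, at chr5:97222314-97223786 of mm9, covers the TSS and is annotated to the first intron. Anxa3 is best known from human neutrophils as a protein of the cytosol and granules. Its signal was 573 and 515 in KO, against 355 and 386 in WT. Here too the groups did not overlap. The mean was 544 ± 40.8 in KO and 370 ± 21.5 in WT (SD, n = 2 each), with a log2 fold change of 0.55 (SE 0.113) and a depth-adjusted ratio of reads of 1.46 (exact 95% counting interval 1.32 to 1.62). This was the only peak of Anxa3, and its call was lost without KO replicate 1 (log2 fold change 0.48). The call of the Anxa1 promoter held with any 1 library left out.

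The strongest annexin promoter peak in WT was that of Anxa2, which encodes the partner of S100a10 at the plasma membrane and a cell-surface binder of plasminogen and its activator. At chr9:69301127-69302210 of mm9, it had signals of 436 and 510 in KO, against 490 and 470 in WT. The groups overlapped, with the highest and the lowest value both in KO. The log2 fold change was -0.03 (SE 0.112). The depth-adjusted ratio of reads was 0.995, with an exact interval from 0.905 to 1.09 for counting error only. That interval leaves out the spread between libraries, so it does not test Anxa2 against Anxa1 or Anxa3. Because the Anxa1 and Anxa2 promoters are read in the same library, the ratio of their signals does not depend on the factor of the library. The Anxa1 promoter had 1.62 and 1.43 times the signal of the Anxa2 promoter in the KO libraries, against 0.913 and 0.973 times in the WT libraries. The ratio of the Anxa3 to the Anxa2 promoter was 1.31 and 1.01 in KO, against 0.725 and 0.820 in WT.

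The Anxa11 promoter peak, at chr14:26661251-26662516 of mm9, had signals of 250 and 272 in KO, against 307 and 219 in WT. Anxa11 encodes a partner of the calcium sensor ALG-2 and, in human neurons, links RNA granules to lysosomes. Both KO values lay between the WT values, and the log2 fold change was 0.01 (SE 0.156). The Anxa6 promoter peak, at chr11:54846533-54847147 of mm9, had 150.1 and 146 in KO, against 208 and 141 in WT (log2 fold change -0.21, SE 0.189). Anxa6 encodes a large annexin with a duplicated core that acts in endocytic and cholesterol traffic. The KO pair again lay between the WT values. The weakest promoter peak was that of Anxa4, at chr6:86743200-86743568 of mm9, with its near edge 10 bp past the TSS, in the first intron. It had 51.2 and 24.9 in KO, against 47.0 and 76.5 in WT. The replicates differed 2.05-fold in KO and 1.63-fold in WT, on 32 to 58 reads a library, and the groups overlapped. Its log2 fold change was -0.73 (SE 0.342), and it was not called, although without WT replicate 1 it was called lower (-1.08).

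**Figure D2:**
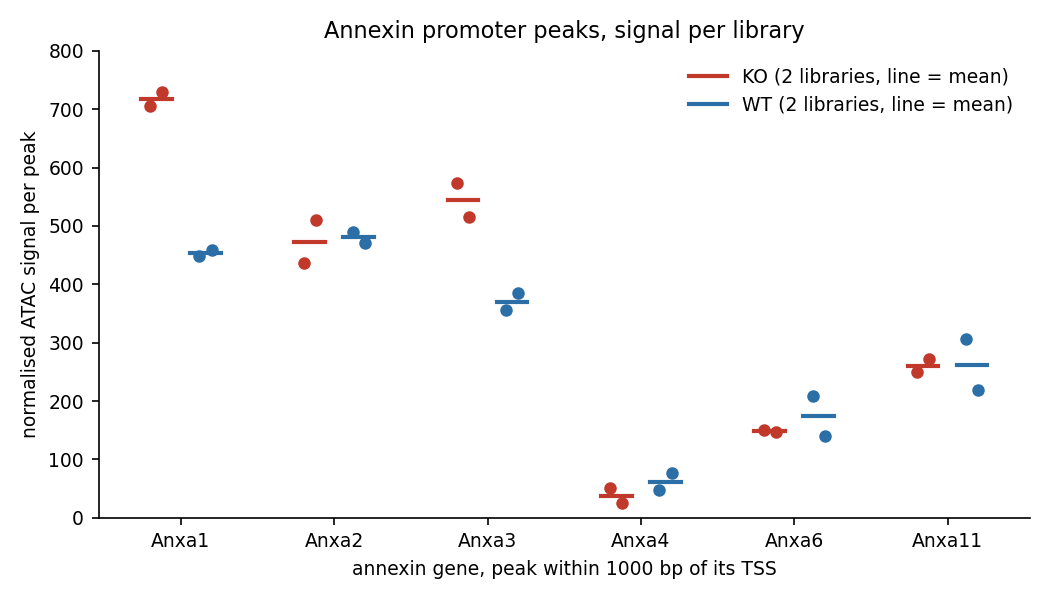
Normalised signal in each library (points) and the mean of each genotype (lines) at the 6 annexin promoter peaks, KO left of WT for each gene. KO and WT points are separate at Anxa1 and Anxa3 and overlap at Anxa2, Anxa4, Anxa6 and Anxa11.

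Since peaks differ in length, from 370 to 1554 bp at these promoters, levels were compared per kb of peak. In WT the order of mean signal per kb was Anxa2 (443), Anxa1 (291), Anxa6 (283), Anxa3 (251), Anxa11 (207) and Anxa4 (167). Anxa2 stood above the rest in both WT libraries, at 452 and 434 per kb. The neighbours below it were not separated, since Anxa1 had 288 and 295, Anxa6 338 and 228, Anxa3 241 and 262, Anxa11 242 and 172, and Anxa4 127 and 207. In KO the order was Anxa1 (461), Anxa2 (436), Anxa3 (369), Anxa6 (241), Anxa11 (206) and Anxa4 (103). In KO, Anxa1 (453 and 469) and Anxa2 (402 and 470.0) overlapped, and each of the other genes was separate from its neighbours. The table marks the promoter peaks of Anxa2, Anxa6 and Anxa11 as CpG islands, and those of Anxa1, Anxa3 and Anxa4 not. The 3 CpG island peaks had log2 fold changes from -0.21 to 0.01, and the other 3 had 0.66, 0.55 and -0.73. Over all promoter peaks, 918 of 9084 carry that mark, and the median log2 fold change was -0.03 with it and -0.02 without it. Each peak carries only 1 such annotation, so a peak without the mark is not shown to lie outside a CpG island.

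The distal peaks numbered 16, at 5 genes. Over all 14511 distal peaks, 5.13% were called higher and 3.77% lower. Of the 16 annexin distal peaks, 2 were called higher, both in the first intron of Anxa1. The nearer one, centred 2796 bp past the TSS at chr19:20462227-20462503 of mm9, had 134 and 123 in KO, against 95.4 and 43.1 in WT. The WT libraries differed 2.21-fold, more than the KO libraries, yet both stayed below KO. Its log2 fold change was 0.99 (SE 0.271), and the depth-adjusted ratio of reads was 1.86 (exact 95% counting interval 1.48 to 2.36). The call rests on few libraries, since it was lost on leaving out KO replicate 1 (0.92) or 2 (1.05) or WT replicate 2 (0.42), and the value was 1.55 without WT replicate 1.

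The other, centred 4202 bp past the TSS at chr19:20460792-20461126, had 162 and 179 in KO, against 110.1 and 94.6 in WT. The groups were separate, with a log2 fold change of 0.73 (SE 0.190) and a ratio of reads of 1.68 (exact 95% counting interval 1.39 to 2.04). It was not called without KO replicate 1 (0.81) or KO replicate 2 (0.66). Its signal stood at 0.229 and 0.246 of that of the promoter peak in the KO libraries and at 0.246 and 0.207 in the WT libraries, and these ratios overlapped between genotypes.

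Away from the 5′ end of Anxa1 the picture was different. Its 4 intergenic peaks, centred from 27276 to 469250 bp past the TSS beyond the end of the gene, had lower signals in both KO libraries than in both WT libraries, with log2 fold changes from -0.57 to -0.28, and none was called. The strongest of them, at chr19:19995633-19996190 of mm9, had 122 and 97.0 in KO, against 141 and 124 in WT (log2 fold change -0.28, SE 0.202). It is far enough from Anxa1 that the assignment by nearest TSS says little about which gene it serves. The others had means from 31.1 to 63.4 in KO and from 44.4 to 88.2 in WT. The peak 28405 bp past the TSS was called lower without WT replicate 2 (-0.93). There KO replicate 2 (45.7) and WT replicate 2 (45.9) were nearly equal. Anxa1 signal was summed over the 3 peaks within 5000 bp of the TSS and over the 4 intergenic peaks. The first sum was 4.02 and 4.32 times the second in the KO libraries, against 1.77 and 2.11 times in the WT libraries. Each peak of the first sum was higher in both KO libraries than in both WT libraries, and each of the second was lower. The higher ratio in KO therefore follows from the grouping and adds no support. The ratio also leaves out the peak at the gene end and was not tested. A further peak at the end of the gene, 17672 bp past the TSS, had 49.5 and 47.8 in KO, against 11.7 and 45.9 in WT. Both KO libraries were close to WT replicate 2, and WT replicate 1 held only 8 reads there. Its log2 fold change of 1.02 (SE 0.430) was not called, and was 1.96 without WT replicate 2, when it was called, and 0.08 without WT replicate 1.

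**Figure D3:**
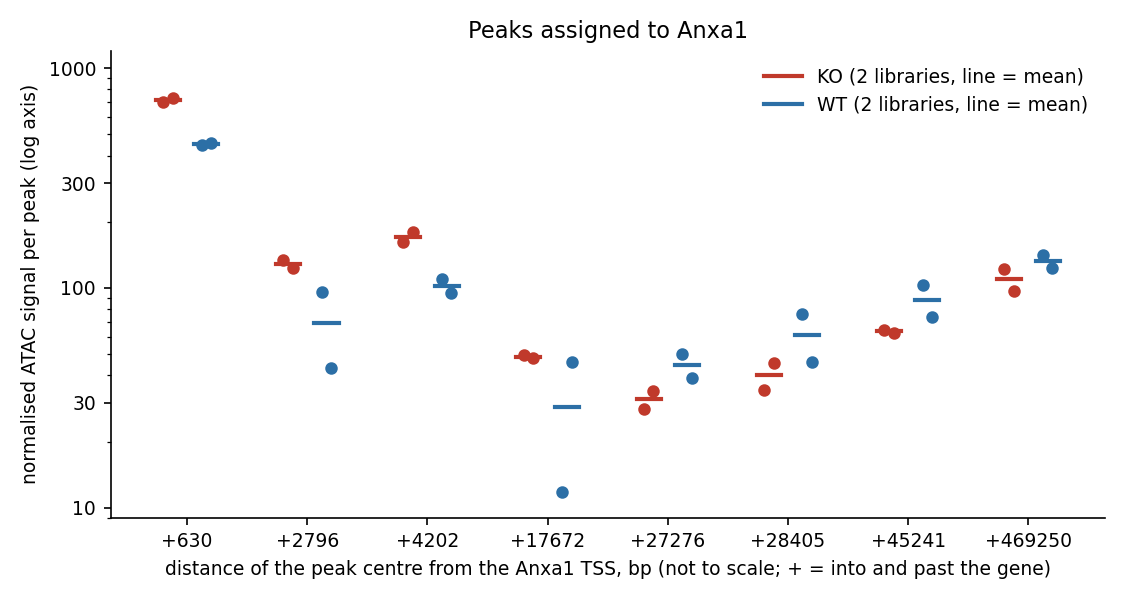
Normalised signal on a log axis at the 8 peaks assigned to Anxa1, ordered by the distance of their centre from the TSS, with each library as a point, the mean as a line and KO left of WT. KO lies above WT at the 3 peaks within 5000 bp of the TSS and below it at the 4 intergenic peaks, and at the gene end WT replicate 1 is low.

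At the other genes no distal peak was called. Anxa11 had 5 such peaks, all in its first intron between 6249 and 19868 bp past the TSS, with log2 fold changes from -0.19 to 0.46. The strongest, at chr14:26676465-26677175 in a SINE repeat of the MIR family, had 342 and 375 in KO, against 346 and 271 in WT, more than the promoter of the gene in every library. The groups overlapped (log2 fold change 0.22, SE 0.136), and it was called higher without WT replicate 1 (0.40). Among the other 4, the groups were apart at 1, which is 8448 bp past the TSS and had 115 and 91.5 in KO, against 77.8 and 71.0 in WT (0.46, SE 0.229, not called). Upstream of Anxa2, a peak at chr9:69287585-69288051, 13672 bp before the TSS, had 183 and 185.0 in KO, against 145 and 146 in WT. Replicates were nearly equal and the groups apart, but with a log2 fold change of 0.33 (SE 0.170) the peak was not called. A second upstream peak of Anxa2 overlapped between genotypes (0.13, SE 0.206).

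The only distal peak of Anxa6, in intron 14 at chr11:54811892-54812098, had 62.7 and 63.0 in KO, against 95.4 and 83.5 in WT. The groups were apart (log2 fold change -0.50, SE 0.241) and the peak was not called. A further peak in an Anxa6 intron, assigned to its neighbour Tnip1, was likewise lower in both KO libraries, with 46.8 and 46.4 in KO, against 64.6 and 76.5 in WT (log2 fold change -0.58, SE 0.272, not called). Anxa7, or synexin, which promotes the fusion of secretory granule membranes, had 1 peak, at chr14:21298011-21298309 in its first intron, 1195 bp past a TSS and just outside the promoter limit. It had 49.5 and 54.0 in KO, against 48.4 and 37.6 in WT with the groups just apart (log2 fold change 0.27, SE 0.300, not called), on 27 to 78 reads a library. A peak in an Anxa7 exon, assigned to Ttc18, had 69.8 and 58.2 in KO, against 63.1 and 51.5 in WT. There the groups overlapped (log2 fold change 0.16, SE 0.269, not called).

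Set against each other, the 6 promoter peaks had a median log2 fold change of -0.01 and the 16 distal peaks of 0.15, beside -0.02 and 0.01 over all 9084 promoter and 14511 distal peaks. The sign of the promoter median turned with scaling, to 0.06 under median centring, and both classes spanned values on either side of 0, from -0.73 to 0.66 at promoters and from -0.57 to 1.02 at distal peaks. Summed over all 22 peaks, annexin signal was 4013 and 4032 in KO, against 3679 and 3273 in WT. By gene, the mean sums in KO and WT were 1309 and 979 at Anxa1 and 544 and 370 at Anxa3. They were 783 and 743 at Anxa2, 1085 and 1015 at Anxa11 and 51.7 and 43.0 at Anxa7. Anxa6 (211 and 264) and Anxa4 (38.1 and 61.8) went the other way, so the sum does not describe every member. In signal per kb, annexin distal peaks were about as dense as annexin promoter peaks, with medians of 318 and 305 in KO and 277 and 267 in WT, whereas over all peaks the medians were 207 at distal and 289 at promoter peaks in KO and 210 and 297 in WT. Median widths were 1176 bp at annexin promoter and 353 bp at annexin distal peaks, beside 806 and 464 bp over all peaks. Before division by width, the WT medians were 316 and 88.8 at annexin promoter and distal peaks, beside 235 and 92.0 over all peaks. The density per kb thus depends on width. Of the 16 annexin distal peaks, 7 belong to Anxa1 and 5 to Anxa11. These medians were not tested, since peaks of 1 gene are not replicates.

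Peak strength moved with the KO to WT difference over the whole table. With peaks sorted by mean signal into 10 equal bins, bin 2 had a median of -0.11, bin 9 of 0.09 and bin 10 of 0.15 on the log2 scale. The Anxa1 promoter lies in bin 10 and that of Anxa3 in bin 9, where 24.9% and 10.1% of peaks were called higher. The Anxa1 intron peaks lie in bins 5 and 6, with 3.60% called higher in each. Its 4 intergenic peaks lie in bins 1, 2, 3 and 5, where the medians over all peaks were -0.03, -0.11, -0.10 and -0.07. After cyclic loess, which fits and subtracts differences that follow signal strength, the log2 fold changes were 0.55 at the Anxa1 promoter and 0.46 at the Anxa3 promoter. They were 1.08 and 0.78 at the nearer and farther Anxa1 intron peaks, and these 4 called peaks were still called.

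**Figure D4:**
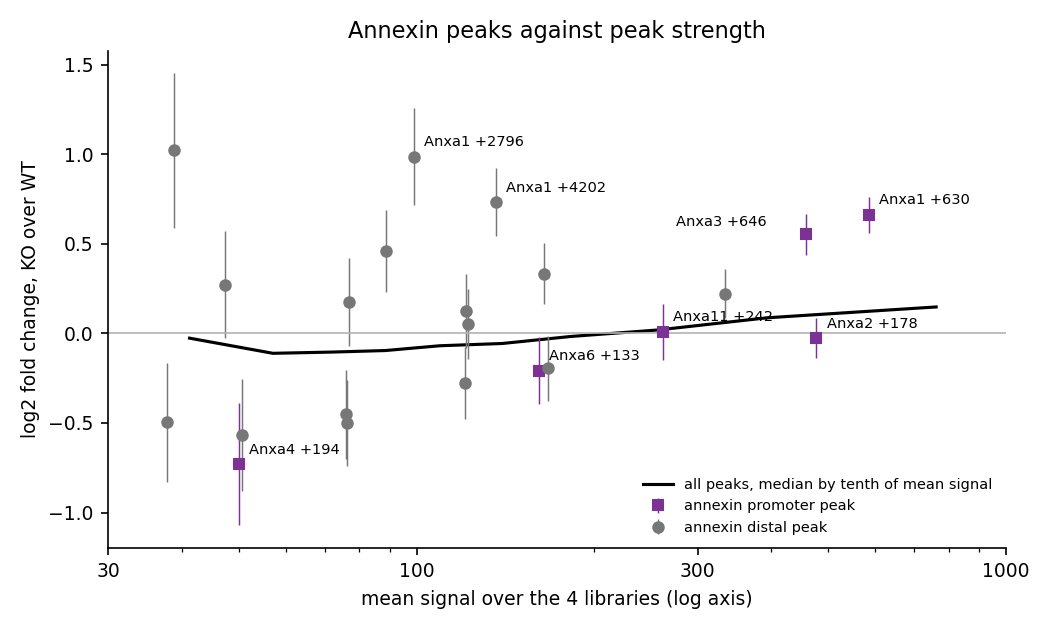
Log2 fold change of KO over WT, with its standard error, against mean signal over the 4 libraries on a log axis, for annexin promoter and distal peaks, with the median of all peaks by bin of mean signal as a line. The Anxa1 and Anxa3 promoters (0.66 and 0.55) lie above the line, and the Anxa2 and Anxa11 promoters (-0.03 and 0.01) near or below it.

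Genes that work with the annexins were examined at 1 promoter peak per gene, where 7.68% of 8776 promoters were called higher and 5.83% lower. The lists were chosen with earlier results of these data known, so their calls and p-values are a description only. Among 22 binding partners and receptors, promoter peaks were found for 13, and 1 gene rose, 1 fell and the other 11 did not pass the test (median log2 fold change -0.23, beside -0.02 over all 8776). The gene that rose was Pdcd6, which encodes ALG-2, the calcium sensor that binds annexins A7 and A11. It had 912 and 842 in KO, against 656 and 676 in WT (log2 fold change 0.40, SE 0.0897, limma adjusted p = 0.0062). The call was lost without KO replicate 1 (0.34) or KO replicate 2 (0.45) and under cyclic loess (0.26). Tlr2, a Toll-like receptor for bacterial lipoproteins, fell to 86.5 and 122 in KO, against 176 and 181 in WT (log2 fold change -0.79, SE 0.197, limma adjusted p = 0.0114), and was not called without KO replicate 1 (-0.55). S100a11, the partner of annexin A1, had 938 and 942 in KO, against 842 and 767 in WT (0.23, SE 0.0856), and S100a6 had 123 and 135 in KO, against 192 and 168 in WT (-0.48, SE 0.178). Neither was called. Named for their role and after their values were seen, S100a10, the partner of annexin A2, had 74.2 and 69.3 in KO, against 98.3 and 89.1 in WT (-0.38, SE 0.232), and Fpr2, the receptor of annexin A1, had 62.7 and 55.4 in KO, against 69.0 and 69.6 in WT (-0.23, SE 0.258). Neither passed the test.

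Of 27 listed names for phosphatidylserine exposure and its recognition, 13 could be measured at a promoter. Of these, 2 were called higher, 1 lower and the other 10 not (median log2 fold change 0.06). As above, calls and p-values are a description, since the lists were chosen with earlier results known. Plscr1, a phospholipid scramblase family gene induced by interferon, rose to 532 and 496 in KO, against 368 and 328 in WT (log2 fold change 0.56, SE 0.116, limma adjusted p = 0.00283), and was not called without KO replicate 1 (0.51). Tmem30a, the chaperone subunit of phospholipid flippases, had 1378 and 1305 in KO, against 1132 and 1106 in WT (0.26, SE 0.0733, limma adjusted p = 0.0233). This call was lost without KO replicate 1 (0.22) or 2 (0.30), under total scaling (0.21) and under cyclic loess (0.10). Plscr3, a mitochondrial family member, fell to 91.8 and 94.2 in KO, against 126 and 170 in WT (-0.65, SE 0.206, limma adjusted p = 0.0427), a call lost on leaving out KO replicate 1 (-0.63) or 2 (-0.67) or WT replicate 2 (-0.44), under median centring (-0.58) and under cyclic loess (-0.59). Of 21 plasma membrane repair genes, 13 had a promoter peak and limma called 0 in either direction. Of these 13, 3 had an unadjusted p under 0.05, a count given without its share over all promoters. Their median log2 fold change was 0.05, and the 4 with the lowest p were Cav1 (-0.76, SE 0.285) and the ESCRT genes Chmp2b (0.29, SE 0.116), Vps4b (0.18, SE 0.0792) and Chmp3 (0.25, SE 0.125).

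By pattern over the 4 libraries, the genes nearest to the mean of the 6 annexin promoters were Xylt1, Scaper and Timm44, at Euclidean distances of 0.0116, 0.0137 and 0.0148 on the centred log2(signal + 1) scale, beside a median distance of 0.328 over 8770 genes. That mean pattern is nearly flat, from -0.05 to 0.09, with the highest value in KO replicate 1, and Xylt1 had 609 and 556 in KO, against 569 and 558 in WT. The mean joins promoters that differ in direction, so it is not the pattern of Anxa1 or Anxa3. These genes were picked for the smallest distances, so no likeness to the annexins is claimed.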

How the data were processed

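ATAC-seq values of sorted mouse bone marrow neutrophils were analysed for 2 KO and 2 WT libraries, with group and replicate number taken from the sample titles. Per the submitters' processing notes, which state neither role nor order, the software included MACS2 2.1.0, DiffBind, HOMER, BWA, Trimmomatic 0.32, bcl2fastq 2.16.0 and R 3.1.1, and the build was mm9. Duplicate removal, Tn5 shift and peak calling settings are not described there. The deposited table holds, per the file headers, 1 signal value per library and consensus peak, normalised by the authors, and the annotation of the nearest TSS. Every value was a whole multiple of a library's step (tolerance 0.001), which gave read numbers and exact 95% intervals, but no count model was used. Listed widths exceed end minus start by 2. All 22 annexin peaks matched RefSeq gene IDs.

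KO and WT were compared in R 4.3.3 with limma 3.58.1, using log2(signal + 1), genotype as the only term, a two-sided moderated test whose prior variance follows mean signal, and adjustment over all 23595 peaks. A minimum mean of 1 removed 0 peaks. The fit was tested on simulated data. Promoter sequences are from RefSeq, GRCm38.p6. Values were given for the promoter peak nearest a TSS of each gene (or its nearest peak), every called peak and the strongest distal peak by WT signal, and for up to 4 genes of lowest p per related list, of which 1 is not reported here, like 1 marker list. The members and lists were chosen with earlier results of these data known. Alternatives were another pseudocount and minimum, 3 scalings, no trend, a replicate block, other promoter limits and each library left out. Figures were drawn with matplotlib 3.10.9.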

Additional observations from a re-analysis of the deposited data

How the results depend on the processing

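The count of 4 annexin peaks called higher was the same with a pseudocount of 10, a minimum mean signal of 50 or none, median centring, total scaling, cyclic loess and the replicate block. It was 0 without a mean-variance trend, where 0 of all peaks were called higher and the calls of Pdcd6, Tlr2, Plscr1, Tmem30a and Plscr3 were lost, and ranged from 1 to 5 with 1 library left out, the Anxa1 promoter being called each time. A lone KO or WT library is there assumed to vary like the other genotype. The count of peaks called lower was 0 except without WT replicate 1 or WT replicate 2, each with 1, and so ranged from 0 to 1. The median log2 fold change of promoter peaks ranged from -0.15 to 0.16 with 1 library left out, and that of distal peaks from -0.00316 to 0.20. No annexin peak is annotated as promoter in the table, so that limit gave no promoter value. With promoters limited to 250 bp from a TSS, the median was -0.12 over 4 promoter peaks and 0.20 over 18 distal peaks. The called Anxa1 and Anxa3 promoter peaks then counted as distal, and no promoter peak was called. The promoter and distal shares of calls thus depend on the limit. Under the replicate block the 4 calls stayed, and deviations of same-numbered libraries did not go together (r = -0.04 across peaks). With 2 libraries a genotype, this cannot show whether same-numbered libraries were prepared as pairs. No called annexin peak changed sign. Of the 2360 weakest peaks in the table, 36 were called higher and 77 lower. With 2 libraries a genotype, an annexin peak that was not called is not shown to be equal in KO and WT. Over all peaks, gains were 57.2% of calls as deposited, 74.3% after median centring, 40.0% after total scaling and 47.6% after cyclic loess, and 588 and 422 peaks were called without KO replicates 1 and 2, 4799 and 3830 without WT replicates 1 and 2, against 2508 with all 4 libraries.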
